A study of Rattus norvegicus with 4 samples.

Results

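Collagens, and 4 further genes of the extracellular matrix that fibroblasts make in quantity (Dcn, Lum, Fn1 and Sparc), were measured in primary cultures of rat cortical neurons after knockdown of Cmtr1. Genes were taken by name: every array probe whose gene name had the form of a collagen chain, plus those 4 names. A probe was kept where 2 or more of the 4 arrays marked it well above background, and the brightest probe stood for its gene. The array held 38 such names on 55 probes, and 36 names passed. One of them, Col4a3bp, encodes a ceramide transfer protein and shares the start of its name with collagen IV; its difference between the groups was -0.02 on the log2 scale, and it was set aside. This left 35 genes, 31 collagens and the 4 others, of 30288 genes tested. Collagen chains without a probe of that name, among them Col4a2, Col6a1, Col6a3 and Col12a1, are not analysed here.

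Neurons came from the cortices of Sprague Dawley rat embryos of both sexes at stage E18.5. At day 2 in vitro they received a lentivirus with a control short hairpin RNA (shCTL) or one against Cmtr1 (shCM1), the enzyme that methylates the first transcribed nucleotide of capped mRNA, and at day 7 total RNA was taken. All 4 cultures therefore carried a lentivirus. There were 2 arrays per group from 2 independent experiments, each array read in a single colour, and the hairpin sequences are not given in the sources used here. The file headers put replicate 1 of both groups on one slide (slide 1) and replicate 2 of both groups on another (slide 2). The labels do not say whether the experiments used separate litters. The p-values cover only these samples, and they lean on variance pooled over genes, as described under processing.

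Collagens are built from 3 chains wound into a triple helix, which is secreted, trimmed and cross-linked outside the cell. In brain the fibril-forming types are made chiefly by meningeal and perivascular fibroblasts and mural cells, whereas collagen IV lies in the basement membrane around vessels and beneath the pia. Decorin (Dcn) and lumican (Lum) are small leucine-rich proteoglycans that coat collagen fibrils, fibronectin (Fn1) is a matrix glycoprotein bound by integrins, and Sparc is a collagen-binding glycoprotein that astrocytes, microglia and vessel cells also secrete. In a mixed culture read as bulk RNA, a change in the number of cells of a type and a change in RNA per cell cannot be told apart.

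Probe sequences are shown for decorin and Sparc, which rose, and for the pair of type I collagen chains, because each value below belongs to 1 stretch of 60 bases and not to the whole transcript. They are from the array files, 5′ to 3′, with rn4 coordinates as the files give them.
Dcn, chr7:35037331-35041132, plus strand, a span longer than the probe: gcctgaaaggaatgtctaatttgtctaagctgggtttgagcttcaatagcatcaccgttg
Sparc, chr10:40811473-40811532, minus strand: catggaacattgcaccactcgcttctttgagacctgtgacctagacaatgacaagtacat
Col1a2, chr4:29425301-29425360, plus strand, the dimmer of its probes and not the one its test rests on: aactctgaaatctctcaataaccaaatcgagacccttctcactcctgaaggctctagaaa
Col1a1, chr10:83637903-83637962, plus strand: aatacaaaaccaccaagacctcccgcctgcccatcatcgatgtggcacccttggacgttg
Further probes of both type I chains reach the end of the coding sequence, shown here with the stop codon in capitals, and the chains share 16 of the last 21 bases.
Col1a1 end: ggccctgcctgcttcgtgTAA
Col1a2 end: ggccctgtctgtttcaaaTAA

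A level here is the log2 of a probe's signal minus the log2 of its array's 75th percentile signal, so 0 is that percentile, and a difference is shCM1 minus shCTL on that scale. Levels of different genes come from different probes and are not set against each other. The Cmtr1 probe stood at -1.43 and -1.86 in shCTL replicates 1 and 2 and at -3.46 and -3.53 in shCM1 replicates 1 and 2, which is 27.7% of control. The share of probes well above background ran from 84.0% to 90.4% per array. Same-slide arrays deviated from their group means together (correlation across genes 0.713). limma called 0 of 30288 genes without a term for slide (Benjamini-Hochberg adjusted p under 0.05), and 908 had an unadjusted p under 0.05. With slide as a block it called 1056 genes higher and 892 lower in shCM1, Cmtr1 among the latter (difference -1.85, adjusted p 3.20e-07). That split depended on the scaling between arrays: quantile scaling gave 346 higher (1.14%) and 556 lower (1.84%), cyclic loess 255 (0.842%) and 453 (1.5%), the authors' deposited values 243 (0.802%) and 433 (1.43%), and normexp background correction 617 (2.04%) and 793 (2.62%). With the block but without the intensity trend of the variance limma called 0. An exact permutation test of 2 against 2 arrays cannot go below 0.33.

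Among the 35 collagen and matrix genes, decorin, Sparc and Col1a2 were higher in shCM1 and Col26a1 and Col5a3 were lower in the slide-blocked limma fit; "rose" and "fell" below refer to that fit. The 3 genes that rose are 8.57% of the members, against 3.49% of all genes, and the 2 that fell are 5.71%, against 2.95%. With each of quantile scaling, cyclic loess and the authors' values 2 members rose and 1 fell, and with normexp 3 rose and 1 fell. Without the block limma called 0 members, and Col1a2 and Col26a1 had an unadjusted p under 0.05. The members' differences ran from -0.68 to 0.86, with a median of 0.15, against 0.08 over all genes. Within slides the members' median was 0.12 on slide 1 and 0.12 on slide 2, against 0.09 and 0.06 for all genes. Without the block, leaving out 1 array moved the members' median to 0.25 (shCTL replicate 2 left out), 0.27 (shCM1 replicate 1) or 0.07 (shCM1 replicate 2).

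Counts of direction stood near those of the whole array. Within both slides, 19 members (54.3%) were higher in shCM1 and 7 (20.0%) were lower, against 44.0% and 22.6% of all genes, and 9 had opposite signs on the 2 slides. The groups did not overlap for 9 members that were higher (25.7%, against 21.6% of all genes) and 4 that were lower (11.4%, against 10.1%). A difference of at least 1.5-fold within both slides was found for 1 member upward, decorin (1.79% of all genes), and 1 downward, Col26a1 (0.624% of all genes).

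**Figure D1:**
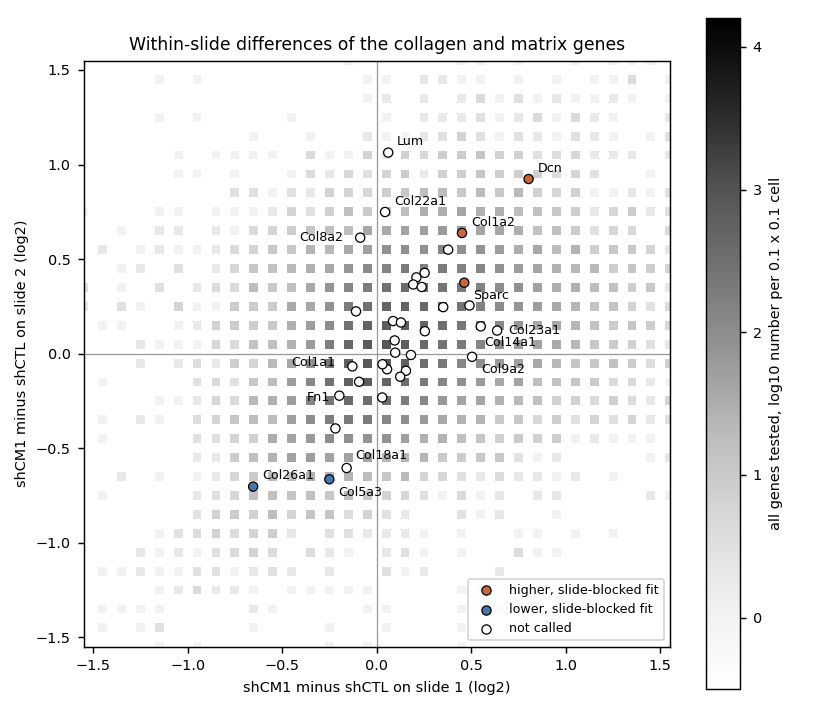
Difference between shCM1 and shCTL (log2) on slide 1, horizontal, and slide 2, vertical, for the 35 genes (circles, coloured where the slide-blocked limma fit called them) over the density of all 30288 genes (grey cells). Decorin lies farthest to the upper right at 0.80 and 0.92, Col26a1 farthest to the lower left at -0.65 and -0.70, and lumican is high on slide 2 and near 0 on slide 1.

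Of the non-collagen members, decorin and Sparc rose, fibronectin was lower without passing the test, and lumican was near background. Decorin, which binds collagen fibrils and TGF-beta, stood at -2.40 and -1.42 in shCTL and at -1.59 and -0.49 in shCM1 (means -1.91 ± 0.69 and -1.04 ± 0.78, SD, n = 2). Replicate 2 was the higher array in both groups, so the groups overlap, but within each slide the shCM1 array was higher, by 0.80 and 0.92. The mean difference of 0.86 is 1.82-fold, with a standard error of 0.12 in the slide-blocked limma fit (adjusted p 2.43e-04) and of 0.48 without the block. Because the slides differ, its value without the block moved to 0.37 without shCTL replicate 1, 1.35 without shCTL replicate 2, 1.41 without shCM1 replicate 1 and 0.31 without shCM1 replicate 2.

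Sparc, a matricellular protein that binds collagen and is needed for its proper deposition, stood at 5.73 and 5.36 in shCTL and at 6.19 and 5.73 in shCM1. Both shCM1 arrays were above both shCTL arrays, although shCM1 replicate 2 exceeded shCTL replicate 1 by very little. Within slides it was higher by 0.46 and 0.38, a mean of 0.42 or 1.34-fold (standard error 0.08, adjusted p 0.00206, slide-blocked limma). Leaving out shCTL replicate 2 or shCM1 replicate 1 gave 0.23 and 0.19, and leaving out shCM1 replicate 2 gave 0.65. Its relative Sparcl1, an astrocyte-enriched protein of the same family, stood at 5.78 and 6.01 in shCTL and at 6.25 and 6.56 in shCM1 and also rose (difference 0.51, adjusted p 2.92e-04).

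Fibronectin stood at 1.73 and 1.69 in shCTL and at 1.54 and 1.47 in shCM1. Both shCM1 arrays were the lower ones, by 0.20 and 0.22 within slides, but the difference of -0.21 did not pass in the slide-blocked limma fit (adjusted p 0.190). A further fibronectin probe, printed at 10 spots per array, was lower as well, by -0.48 and -0.26. Lumican, a fibril-coating proteoglycan like decorin, was well above background on slide 2 and on neither array of slide 1, with signals of 9.23 and 15.3 in shCTL and 8.80 and 31.5 in shCM1. Its differences were 0.06 and 1.06, so 1 array, shCM1 replicate 2, stood apart from the other 3.

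The fibril-forming collagens, which make the load-bearing fibres of connective tissue, moved in both directions: of 11 chains measured, 1 rose (Col1a2), 1 fell (Col5a3) and 9 did not pass. Their median difference was 0.19. Col1a2, the α2 chain of type I collagen, stood at -1.79 and -1.68 in shCTL and at -1.34 and -1.04 in shCM1. The groups did not overlap, and within slides it was higher by 0.45 and 0.64, a mean of 0.54 or 1.46-fold (standard error 0.12, adjusted p 0.0122, slide-blocked limma). Its other probe, the one printed above, gave 0.41 and 0.46. It no longer passed with quantile scaling (adjusted p 0.0637), with cyclic loess (0.0749) or in the authors' deposited values (0.0825).

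Col1a1, the α1 chain that joins Col1a2 in the same molecule, did not move with it. It stood at -0.09 and -0.47 in shCTL and at -0.21 and -0.54 in shCM1, and the groups overlap. Its differences were -0.13 and -0.07, and the adjusted p was 0.633 in the slide-blocked limma fit. The difference for Col1a2 exceeded that for Col1a1 by 0.58 on slide 1 and 0.71 on slide 2. The 3 Col1a1 probes did not agree among themselves. The one that ends on the stop codon gave 0.09 and 0.10, and one that starts farther downstream gave -0.53 and -0.76.

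Type V collagen, which is built into type I fibrils and limits their width, was measured on all of Col5a1, Col5a2 and Col5a3. Col5a3, a chain found in a minor form of the molecule, stood at 1.77 and 2.20 in shCTL and at 1.52 and 1.54 in shCM1. Both shCM1 arrays were below both shCTL arrays, with shCTL replicate 2 the highest. Within slides it was lower by -0.25 and -0.66, a mean of -0.46 or 72.8% of control (standard error 0.10, adjusted p 0.0125, slide-blocked limma). Without shCTL replicate 2 the difference was -0.24, and Col5a3 no longer passed with quantile scaling (adjusted p 0.0694), with cyclic loess (0.0882) or in the authors' deposited values (0.0913). Col5a1 gave 0.09 and 0.17 and Col5a2 gave -0.09 and -0.15, and neither passed.

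The other fibril-forming chains were mostly a little higher. Col3a1, which forms the fine fibrils of vessel walls and meninges, stood at -3.90 and -3.97 in shCTL and at -3.71 and -3.61 in shCM1, without overlap, and differed by 0.19 and 0.37. Col24a1 differed by 0.25 and 0.43, again without overlap, and Col27a1 by 0.24 and 0.35 with overlap. Of the chains best known from cartilage, Col2a1 gave 0.21 and 0.40, Col11a1 0.25 and 0.12, and Col11a2 0.15 and -0.09. None of these 6 passed in the slide-blocked limma fit, their adjusted p lying between 0.247 for Col2a1 and 0.912 for Col11a2.

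**Figure D2:**
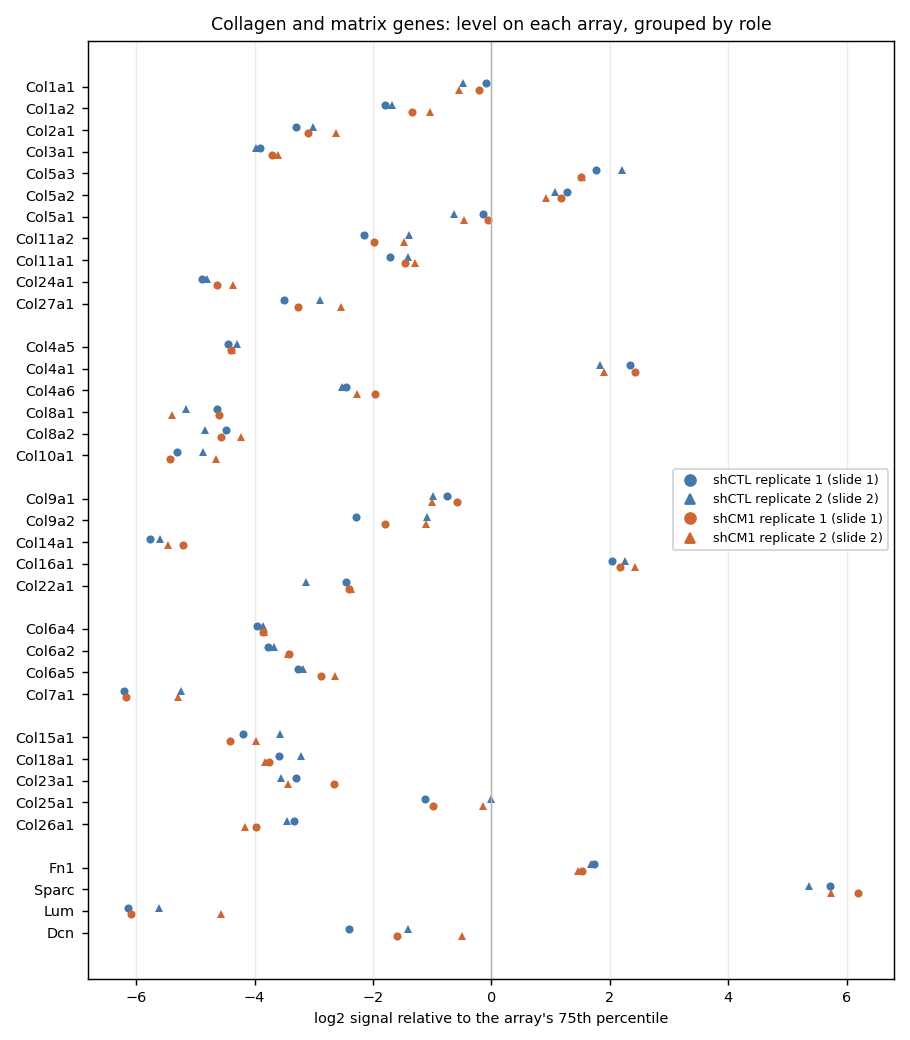
Level of each of the 35 genes on each array (log2 signal relative to the array's 75th percentile, horizontal), with genes in rows grouped from top to bottom as fibril-forming, network-forming, fibril-associated, type VI and VII, transmembrane and related, and non-collagen; circles are slide 1, triangles slide 2, blue shCTL and orange shCM1. The 2 shCM1 arrays lie to the right of both shCTL arrays for Sparc and Col1a2 and to the left for Col26a1 and Col5a3, whereas for decorin the slides lie apart and the shCM1 array is to the right within each.

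None of the 6 network-forming chains, which assemble into sheets rather than fibres, passed the test, and their median difference was 0.07. Col4a1, the main chain of the basement membrane, stood at 2.34 and 1.83 in shCTL and at 2.43 and 1.90 in shCM1. Its arrays paired by slide rather than by group, and its differences were 0.09 and 0.07. Col4a6 stood at -2.46 and -2.53 in shCTL and at -1.97 and -2.28 in shCM1, without overlap, and differed by 0.49 and 0.25 (adjusted p 0.115, slide-blocked limma). Col4a5, which partners Col4a6 in some basement membranes, gave 0.05 and -0.08.

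Collagen VIII, a short-chain collagen of vessel walls and corneal membrane, had opposite signs on the slides in both of its chains. Col8a1 gave 0.03 and -0.23, and Col8a2 gave -0.09 and 0.61. Col10a1, the hypertrophic cartilage collagen, was dim, with signals from 13.9 to 29.7, and gave -0.11 and 0.22. Of the collagen IV names that failed the filter, Col4a3 was well above background on 1 array, with signals from 2.82 to 8.34, and Col4a4 on 0. Just inside it, Col7a1 and lumican were well above background on 2 arrays, and the other 33 members were so on all 4.

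The 5 fibril-associated collagens, which decorate fibrils without forming them, had a median difference of 0.24 and no calls. Col22a1, known from tissue junctions, stood at -2.45 and -3.13 in shCTL and at -2.40 and -2.38 in shCM1. Its differences were 0.04 and 0.75, and without shCTL replicate 2, the lowest array, the difference was 0.06. Col14a1 gave 0.55 and 0.14, without overlap, at signals no higher than 16.9. Col16a1 gave 0.13 and 0.16, Col9a1 gave 0.18 and -0.01, and Col9a2, which joins Col9a1 in collagen IX, gave 0.50 and -0.02.

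The 4 chains of collagens VI and VII, which form beaded filaments around cells and anchoring fibrils under epithelia, had a median difference of 0.18 and no calls. Col6a5 stood at -3.26 and -3.19 in shCTL and at -2.88 and -2.64 in shCM1, without overlap, and differed by 0.38 and 0.55 (adjusted p 0.0774, slide-blocked limma). Col6a2, which belongs to the core type VI molecule, differed by 0.35 and 0.25, also without overlap. Col6a4 gave 0.10 and 0.01. Col7a1, near background on slide 1, gave 0.03 and -0.06.

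The 5 remaining collagens are the endostatin-bearing types XV and XVIII, the membrane-spanning types XXIII and XXV, and type XXVI; their median difference was -0.31. Col26a1, an EMI-domain collagen, stood at -3.33 and -3.45 in shCTL and at -3.98 and -4.15 in shCM1. Both shCM1 arrays were lower, by -0.65 and -0.70 within slides, a mean of -0.68 or 62.5% of control (standard error 0.18, adjusted p 0.0277, slide-blocked limma). With normexp background correction its difference was -0.31 and the call was lost (adjusted p 0.0665); its signals were 37.8 to 69.0.

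Col18a1, a basement membrane collagen of vessels and pia, stood at -3.59 and -3.22 in shCTL and at -3.75 and -3.82 in shCM1. The groups did not overlap, its differences were -0.16 and -0.60, and the adjusted p was 0.216 in the slide-blocked limma fit. A second Col18a1 probe, which overlaps the first by most of its length, gave -0.18 and -0.60. Col15a1, its close relative, gave -0.22 and -0.40 with overlapping groups. Col23a1 gave 0.64 and 0.12. Col25a1, a neuronal transmembrane collagen whose shed part binds amyloid fibrils, stood at -1.12 and -0.01 in shCTL and at -0.99 and -0.14 in shCM1, so it differed far more between slides than between groups.

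For 13 members more than 1 probe passed the filter, which allowed the differences to be read again on another stretch of the same gene. Col1a2, Col18a1, Col2a1, Col14a1, Col23a1, Col11a1 and Col16a1 kept their sign on every probe and slide, and so did fibronectin and Col5a2. Col1a1 was the member whose probes lay farthest apart in opposite directions. With the median over probes in place of the brightest probe, the slide-blocked limma fit called decorin, Sparc, Col26a1 and Col5a3 and no longer Col1a2, and Col1a1 turned from -0.10 to 0.10.

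**Figure D3:**
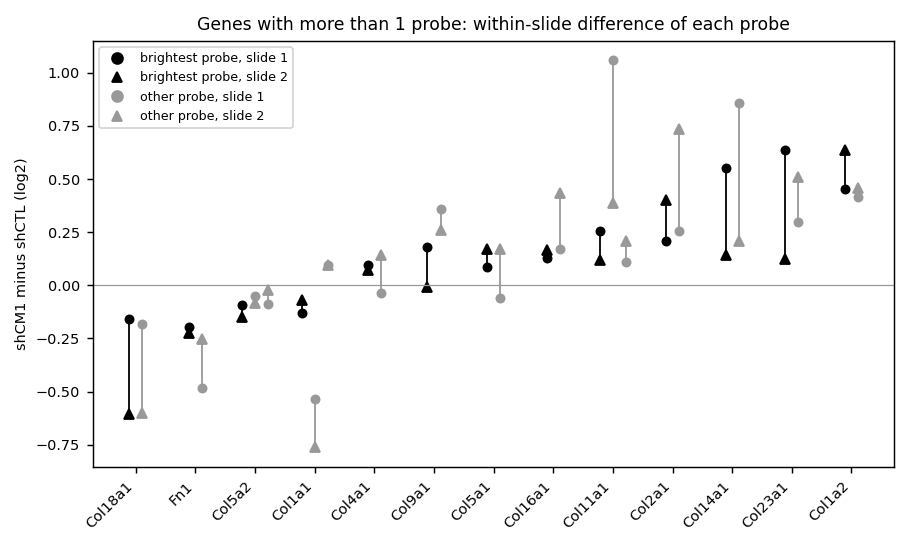
Difference between shCM1 and shCTL (log2, vertical) for every probe of the 13 genes with more than 1 probe, circles for slide 1 and triangles for slide 2, joined by a line; the probe used for the gene is black and its others are grey. Both Col1a2 probes lie between 0.41 and 0.64, both Col18a1 probes between -0.60 and -0.16, and the Col1a1 probes range from -0.76 to 0.10.

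Of the enzymes and chaperones that make and cross-link collagen, 27 of 28 listed were measured, and 2 rose and 1 fell in the slide-blocked limma fit, with a median difference of 0.14. In that fit 3.49% of all genes rose and 2.95% fell, and the median of all genes was 0.08, which is the background for each list below. P4ha2, a catalytic subunit of the prolyl 4-hydroxylase that stabilises the triple helix, stood at -0.50 and -0.22 in shCTL and at 0.20 and 0.36 in shCM1. It rose by 0.64 (adjusted p 0.00122), and the groups did not overlap. Lox, the lysyl oxidase that starts cross-linking, stood at -3.35 and -3.52 in shCTL and at -4.09 and -4.79 in shCM1. It fell by 1.01 (adjusted p 0.00437); the difference was -0.65 without shCM1 replicate 2 and -0.44 with normexp. Its relative Loxl3 rose by 0.55 (adjusted p 0.0370), a call lost with quantile scaling, cyclic loess, normexp and the authors' deposited values (adjusted p 0.0589 to 0.195).

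Receptors for collagen and fibronectin were measured for 13 of 18 listed genes; 2 rose and 0 fell (3.49% and 2.95% of all genes), and the median was 0.19. Adgrg1, an adhesion receptor that binds collagen III during cortical development, stood at 1.26 and 0.82 in shCTL and at 1.66 and 1.73 in shCM1, and rose by 0.66 (adjusted p 0.00136, slide-blocked limma; 0.44 without shCTL replicate 2). Itgb1, the β1 chain common to the collagen-binding integrins, rose by 0.36 (adjusted p 0.0192), with differences of 0.35 and 0.37 within slides. Among matrix proteases and their inhibitors, 17 of 22 listed genes were measured and 2 rose (3.49% of all genes): Timp4, an inhibitor, by 0.37 and Mmp2, a gelatinase, by 0.34. With cyclic loess (adjusted p 0.0612 and 0.0706) and in the authors' deposited values (0.0694 and 0.0688) neither Timp4 nor Mmp2 passed; Timp4 also missed with quantile scaling (0.0529) and Mmp2 with normexp (0.0578), and Mmp2 was 0.13 without shCTL replicate 2 and 0.55 without shCTL replicate 1.

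Of 33 other matrix proteins measured, of 40 listed, 10 rose and 2 fell (3.49% and 2.95% of all genes), with a median difference of 0.36. The list was drawn up with earlier results of these data known, so it is a description. Ltbp1, which holds latent TGF-beta in the matrix, stood at -1.10 and -1.87 in shCTL and at -0.10 and -0.55 in shCM1. It rose by 1.16 (adjusted p 9.32e-06, slide-blocked limma) and was 0.77 without shCTL replicate 2. Biglycan (Bgn), the proteoglycan closest to decorin, stood at 1.68 and 2.17 in shCTL and at 2.30 and 2.96 in shCM1, without overlap. It rose by 0.71 (adjusted p 9.22e-05) and ranged from 0.37 without shCM1 replicate 2 to 1.04 without shCM1 replicate 1.

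Versican (Vcan), a large chondroitin sulphate proteoglycan of the brain matrix, rose by 0.55, and fibulin-2 (Fbln2), which links elastic fibres to basement membrane, rose by 0.56. Mfap2, a protein of the elastin-associated microfibril, fell by 0.56. Under the other scalings this list had 7 genes higher with quantile scaling, 6 with cyclic loess, 6 in the authors' deposited values and 9 with normexp, and 2 lower in each. Of 18 TGF-beta signalling genes, a pathway known to drive collagen synthesis in fibroblasts, 0 rose and 2 fell (3.49% and 2.95% of all genes). Their median difference was 0.16, and 11 were higher and 3 lower within both slides (44.0% and 22.6% of all genes). The ligand Tgfb2 stood at 3.74 and 4.22 in shCTL and at 3.15 and 3.56 in shCM1, and fell by 0.63 (adjusted p 1.06e-04). Inhba, which encodes the activin βA subunit, fell by 0.60 (adjusted p 0.00125). Without shCTL replicate 2 the Tgfb2 difference was -0.39.

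**Figure D4:**
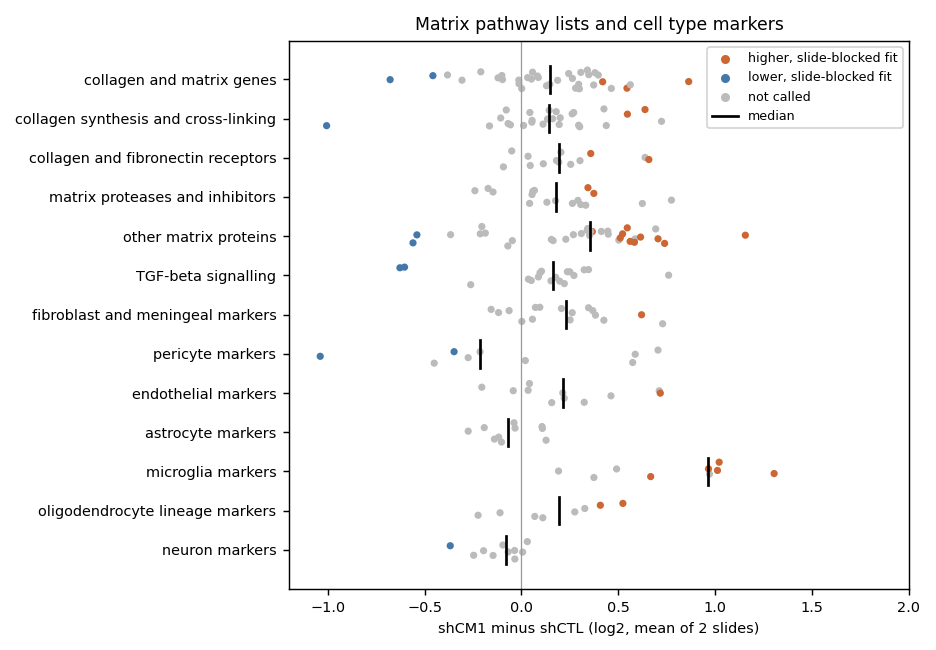
Mean difference between shCM1 and shCTL over the 2 slides (log2, horizontal) for each gene of the collagen and matrix set, of 5 lists of related genes and of 7 lists of cell type markers (rows); points are genes, coloured where the slide-blocked limma fit called them, and black bars are medians. The collagen and matrix genes centre at 0.15, the other matrix proteins at 0.36 and the microglial markers at 0.97.

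The cultures held markers of several cell types besides neurons; the counts of markers called stand against 3.49% of all genes higher and 2.95% lower. The neuronal markers Stmn2, Dcx and Tubb3 stood between 5.44 and 7.41 on all arrays, and the astrocyte markers Slc1a3, Aqp4 and Gja1 between 2.90 and 6.56. Fibroblast and meningeal markers were measured for 16 of 20 listed genes, of which 1 rose, Pdgfrb, a receptor shared with pericytes. Their median difference was 0.23, and 9 were higher and 2 lower within both slides (44.0% and 22.6% of all genes). Of those higher on both slides, Prrx1, Tbx18, Twist2, Slc47a1 and Slc6a13 differed by 0.35, 0.43, 0.38, 0.37 and 0.73. Twist1 and Slc22a6, also higher on both slides, differed by 0.25 and 0.26. All of these were named after their values were seen and did not pass (adjusted p 0.0799 to 0.644, slide-blocked limma). Tbx18, Slc6a13 and Slc22a6 were dim, with signals no higher than 14.98, 20.87 and 16.91. With normexp these dim genes differed by 0.12, 0.13 and 0.11. With 1 array left out in turn, all but Twist2 and Slc47a1 took both signs, Slc6a13 being -0.09 without shCTL replicate 1. The 2 lower on both slides were Thy1 (-0.16) and Foxc2 (-0.06). S100a4, Igf2 and Cdh11 had opposite signs on the slides, with mean differences of -0.12, 0.06 and 0.09. The summed linear level of all 16 measured genes of the list was 17.5 and 24.4 in shCTL and 18.4 and 25.3 in shCM1. Its unit is the array's 75th percentile signal. That sum was higher on slide 2 in both groups. The brightest genes of the list, Pdgfra, Slc13a3 and Tagln, are not specific to fibroblasts, Pdgfra also marking oligodendrocyte precursors; their differences were 0.07, 0.00 and 0.21, and none passed. The fibroblast and meningeal transcription factors Foxc1 and Tcf21 were well above background on 1 array each and the meningeal enzyme Aldh1a2 on 0. Pdgfrb differed by 0.99 and 0.25 within slides, and its mean of 0.62 became -0.10 without shCTL replicate 1.

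Pericyte markers, 9 of 10 measured, had 2 that fell, Abcc9 and Cspg4, and a summed level of 22.2 and 22.4 in shCTL against 20.0 and 17.4 in shCM1. Its brightest genes were Notch3, Cspg4 and Anpep, of which Cspg4 also marks oligodendrocyte precursors. Cspg4 fell by 0.35, and Abcc9 by 1.04 at a level near background. The pericyte markers did not move as 1 set: 3 were higher and 4 lower within both slides (44.0% and 22.6% of all genes). Without overlap, 3 were higher and 3 lower (21.6% and 10.1% of all genes). Those higher were Vtn, Des and Higd1b, by 0.59, 0.57 and 0.70, and they did not pass (adjusted p 0.0562, 0.0528 and 0.264, slide-blocked limma). Higd1b was dim, with signals of 6.18 to 15.1, and was 0.09 with normexp and 0.29 without shCTL replicate 1. Those lower were Cspg4, Abcc9 and the dim Kcnj8 (-0.45, signals 7.58 to 13.9). Endothelial markers, 11 of 12 measured, had 1 that rose, Slco1c1 (by 0.72), a thyroid hormone and organic anion transporter that astrocytes express too. The endothelial sum went from 4.58 and 4.60 in shCTL to 7.55 and 6.81 in shCM1. Slco1c1, the brightest endothelial gene ahead of Kdr and Sox17, held most of that sum and of its rise. The median difference of the endothelial markers was 0.21, and 0.007 with quantile scaling. Emcn was well above background on 0 arrays. Microglial markers, 9 of 10 measured, had 5 that rose and 0 that fell (3.49% and 2.95% of all genes), with a median of 0.97 and a sum of 1.73 and 1.91 in shCTL against 3.02 and 2.58 in shCM1. Among its brightest genes Tyrobp rose by 0.97 and Cd68 by 0.67, whereas Laptm5 stood 0.19 higher and did not pass; Itgam was well above background on 0 arrays. Astrocyte markers had 0 calls of 10, with sums of 123 and 138 in shCTL and 134 and 137 in shCM1. Of the oligodendrocyte lineage, Mbp rose by 0.52, whereas the differences of Olig1 and Sox10, -0.11 and -0.22, did not pass. Of 10 neuronal markers 1 fell (Tubb3, by 0.37). The neuronal sum was 404 and 319.5 in shCTL and 387 and 295 in shCM1. Some of these marker calls rested on the scaling: Pdgfrb, Cspg4 and Mbp did not pass in the slide-blocked fit with quantile scaling (adjusted p 0.102, 0.102 and 0.0900), Abcc9 with normexp (0.147), or Cd68 and Tubb3 with cyclic loess (0.0521 and 0.0773). With 1 array left out Cspg4 ranged from -0.50 to -0.20, Cd68 from 0.36 to 0.97 and Tubb3 from -0.62 to -0.11. The part of any of these cell types in the differences of the collagen and matrix genes was not tested.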

How the data were processed

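Gene expression was measured on 4 Agilent single-colour (Cy3) arrays, 2 per group. The deposited scanner files hold spot intensity on a linear scale, background-corrected within the array by Agilent Feature Extraction, per the file headers, with no scaling between arrays. The authors' deposited value table also holds linear intensity; each of its columns followed its own array (Pearson correlation 0.9998 or above on the log2 scale), and how the authors scaled arrays against each other is not stated in the labels. No spot of a gene probe was saturated, and 86 to 98 outlier spots per array were left out. For arrays, their number limits the precision.

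Log2 of the deposited processed signal was centred on each array's 75th percentile, spots of a probe were averaged, and probes well above background on at least 2 arrays were kept (36704 of 41012; 6 more were left out because of outlier spots). The brightest probe stood for a gene. Gene names are those of the array, updated through RefSeq by accession for 19548 probes, by symbol for 2995 and by older symbol for 166; 18303 kept the name in the files.

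The test was limma's moderated linear model (limma 3.58.1, run in R 4.3.3), with a variance prior that follows intensity and p-values adjusted by Benjamini-Hochberg over all 30288 genes at a threshold of 0.05. It was fitted without a term for slide as the main fit and with slide, which is also the replicate number, as a block. In the blocked fit the variance prior had 17.4 degrees of freedom, more than 4 arrays can supply. Its standard errors and p-values therefore rest mainly on variance shared by genes of like intensity, and little on a gene's own spread. The labels do not say that a slide holds 1 experiment; the pairing comes from the slide in the file headers and from the shared deviations (correlation 0.713). The procedure was tested on simulated data. Alternatives were quantile and cyclic loess scaling, the authors' values, normexp background correction with an offset of 50, other filters on dim probes, the median over probes, and leaving out each array; the blocked fits with other filters and with the median over probes were added after seeing the data.

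All members are named. From each list of related genes, those called in either fit are named, up to 6 by smallest blocked p; from each marker list, the 3 brightest genes (1 marker is not reported here), with Pdgfrb, Abcc9, Slco1c1, Mbp and markers not well above background added after their values were seen. The members and lists were chosen with earlier results of these data known.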

Additional observations from a re-analysis of the deposited data

How the results depend on the processing

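With slide as the replicate block, limma called 1948 genes and 5 of the collagen and matrix genes, against 0 and 0 without it. Blocked fits on other scalings called 902 and 3 (quantile), 708 and 3 (cyclic loess) and 676 and 3 (the authors' values). Blocked fits called 1410 and 4 with normexp, 359 and 1 with no filter on dim probes, 1948 and 5 with probes above background on all 4 arrays, and 1188 and 4 with the median over probes. The last 3 were chosen after seeing the data. Leaving out 1 array gave 0 to 1 genes and 0 members. The members' median difference was 0.11 with quantile scaling, 0.098 with cyclic loess, 0.11 in the authors' values, 0.092 with normexp, 0.20 with the median over probes, and 0.066 to 0.27 with 1 array left out. Quantile scaling, cyclic loess and the authors' values each brought the median of all genes from 0.08 to 0.01.

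None of the 5 members that passed the slide-blocked test changed sign in any of these settings. Among the others, Col10a1, Col11a2, Col25a1 and Col6a4 turned to -0.17, -0.052, -0.032 and -0.13 with quantile scaling, to -0.19, -0.049, -0.027 and -0.14 with cyclic loess, and to -0.18, -0.054, -0.033 and -0.13 in the authors' values. Col4a5 and Col7a1 turned to 0.015 and 0.029 with normexp, and Col1a1 to 0.095 with the median over probes. With 1 array left out in turn, 17 members took both signs, with these lowest and highest values: Col10a1 -0.33 to 0.45, Col11a2 -0.35 to 0.41, Col15a1 -0.62 to 0.0036, Col1a1 -0.29 to 0.096, Col23a1 -0.0056 to 0.76, Col25a1 -0.55 to 0.55, Col27a1 -0.062 to 0.65, Col4a1 -0.19 to 0.35. The others ran as follows: Col4a5 -0.095 to 0.067, Col5a1 -0.11 to 0.37, Col5a2 -0.25 to 0.0087, Col6a4 -0.00035 to 0.10, Col7a1 -0.49 to 0.47, Col8a1 -0.50 to 0.29, Col9a1 -0.12 to 0.30, Col9a2 -0.36 to 0.85, Lum -0.20 to 1.32. These fits leave a group with 1 array, assumed to vary like the other group; the cause of each change was not tested. Low signal over background limits Lum, Col7a1, Col14a1 and Col10a1.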
